A study of Mus musculus with 8 samples.

Results

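The amino acid transporter genes of the Slc1a, Slc3a, Slc6a, Slc7a, Slc36a, Slc38a and Slc43a families were compared between kidneys of myeloid FoxO1 knockout mice and control mice after ischemia-reperfusion (I/R), a model of acute injury that cuts off and later returns the kidney's blood flow. Members were all gene symbols of these 7 families with a total of at least 80 counts over the 8 libraries, except Slc7a11, which was left out. Of 25239 genes in the table, 66 carried such a symbol, 19 lay under the minimum (5 of them at 0 in all libraries) and 46 were members. The member with the lowest total was Slc7a3 with 153 counts, and the gene just outside was Slc7a10 with 40. All 46 members passed the filter on low counts. The symbols also took in 2 loci named for lying on the strand opposite a transporter gene, Slc6a19os and Slc7a6os, so 44 members encode transporters or their chains.

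The knockout group had 4 libraries from kidneys of mice with the myeloid-specific knockout, and the control group had 4 libraries with the genotype label WT. Per the labels' protocols, Lyz2-CreERT2 FoxO1flox/flox mice aged 8 to 10 weeks received tamoxifen in corn oil by intraperitoneal injection (75 mg per kg on 5 days). Lyz2 is a gene of myeloid cells, so the tamoxifen-dependent Cre is aimed at macrophages and their relatives and not at the tubule cells that carry most transporters described here. This protocol text stands with all 8 samples; whether the controls carried Cre or received tamoxifen is not given in the sources used here. In all animals the right kidney was removed under pentobarbital and the left renal vessels were closed with a clamp for 35 minutes. Collagenase was used to digest the tissue, and 1.3 µg of total RNA entered each library. The time from reperfusion to collection is not given in the sources used here, no uninjured kidney was analysed here, and separate animals are named in no label, so p-values reflect only how these libraries vary, in part perhaps for technical reasons.

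The kidney takes nearly all filtered amino acids back from the urine in the proximal tubule. Transporters of the apical brush border carry them into the cell, driven by sodium, protons or exchange, and transporters of the basolateral side release them to the blood. Several work as pairs of a heavy chain, which brings the complex to the membrane, and a light chain, which carries the substrate. Other members bring amino acids into cells for growth, serve as osmolyte carriers of the medulla, or sit on lysosomes, where they report amino acid supply to the kinase complex mTORC1.

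Levels are CPM, counts scaled to a common library size with TMM factors, and the edgeR quasi-likelihood test compared knockouts with controls over all 15000 genes tested. The threshold for a call was a Benjamini-Hochberg adjusted p under 0.05. Library totals ran from 29044405 to 34738914 counts in knockouts and from 32627652 to 35530421 counts in controls. Foxo1, the targeted gene, had 41.4, 41.0, 42.9 and 39.3 CPM in knockouts 1 to 4, against 34.5, 33.4, 33.0 and 33.9 CPM in controls 1 to 4; these are levels of whole tissue and do not check the deletion in myeloid cells. The Y-linked genes Ddx3y, Eif2s3y, Kdm5d and Uty had 121 to 852 counts per library in knockouts and 195 to 1241 in controls, while Xist had 0 to 8 counts in knockouts and 0 to 3 in controls. In bulk tissue, fewer cells of a type and less RNA per cell cannot be told apart.

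Of the 46 members, 9 rose (19.6%), 3 fell (6.52%) and 34 did not pass the test. Over all genes tested, 6.45% were called higher and 6.28% lower. The share of members called lower was thus near the background, and the share called higher was above it. The 9 that rose were Slc7a12, Slc6a12, Slc7a13, Slc6a15, Slc7a8, Slc38a10, Slc36a4, Slc6a6 and Slc43a2, and the 3 that fell were Slc6a19os, Slc6a9 and Slc7a5. The median log2 fold change of the members was 0.22, against -0.012 over all genes tested. Groups did not overlap for 17 members (37.0%), against 21.7% of all genes tested; 11 of the 17 were higher and 6 lower in the knockouts. The count of risen members was 5 without knockout 2, knockout 3 or knockout 4, where 3.51%, 3.79% and 3.01% of all genes were called higher. Leaving out control 3, knockout 1, knockout 3 or knockout 4 gave 1 fallen member, and in these fits 3.54%, 6.14%, 3.71% and 2.97% of all genes were called lower. Lyz2 had 1302, 909, 13 and 858 counts in knockouts 1 to 4, against 81, 1610, 1144 and 844 in controls 1 to 4. The reason for this spread was not tested. Without control 1 and knockout 3, the lowest libraries of their groups, 7 members rose and 1 fell. In that fit 3.65% of all genes were called higher and 3.30% lower. With trends of level on gene length removed, 40.2% of all calls were higher, against 50.7% in the main test.

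**Figure D1:**
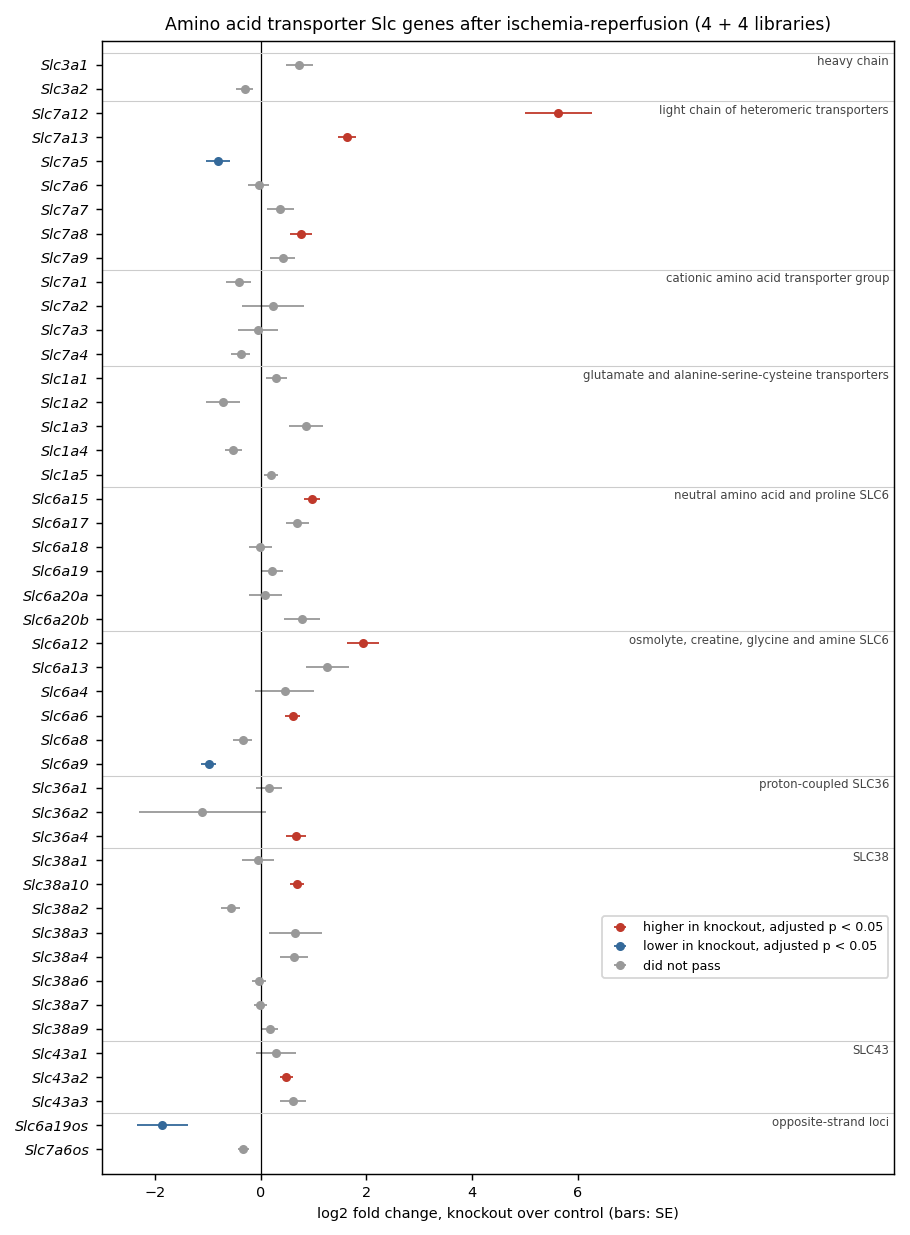
Log2 fold changes of the 46 members, knockout over control, on the horizontal axis with SE bars, grouped by role from top to bottom. Red points passed the test as higher (9), blue points as lower (3) and grey points did not pass; Slc7a12 lies farthest out at 5.63.

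Sequence was looked up for the members in RefSeq promoters of the build GRCm38.p6, from 250 bases before to 50 after each start site; 31 of 46 members matched, with 50 promoters. Of the 12 called members 7 matched, and Slc7a12, Slc7a13, Slc7a5, Slc6a15 and Slc6a6 did not. A motif of the amino acid response factor ATF4, TGATGNAAN on either strand, was present in 3 of the 50 promoters, of Slc1a4 and Slc7a7, and in 3.95% of 32851 promoters. A motif of the epithelial factor HNF4, CAAAGTCCA, was present in 1 promoter, of Slc3a1, and in 0.475% of all. Neither the forkhead motif GTAAACA (3.65% of all promoters), which FoxO factors share with other forkhead factors, nor that of HNF1 (0.399%) matched any of these 50 promoters in this window. The stretches that hold the matches are shown because they show where, relative to the start site, letters of these factors occur in the member set; the capitals mark the match, and a match is not a binding site.
Slc1a4 at chr11:20332704-20332733, minus strand: cagcgtgcctcctgcGTTGCATCAtctcca
Slc7a7 at chr14:54417930-54417959, minus strand: tgggacctagaagcTGATGCAACagcttcc
Slc3a1 at chr17:85028297-85028326, plus strand: ccttggctggaCAAAGTCCAgccatgatta
In Slc1a4 the match reads the motif on the opposite strand and spans the start site, from position -5 to 4. The Slc7a7 match shown spans the start site from -1 to 8 (the same bases lie in a second, overlapping promoter of the gene, and another match lies at -141 to -133), and that of Slc3a1 lies from -39 to -31. None of these 3 genes passed the edgeR test between the groups, and calls of Slc1a4 and Slc3a1 under other settings are given below.

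The heteromeric transporters gave the largest rise. Of 7 light chain genes, 3 rose and 1 fell, and neither of the 2 heavy chain genes passed. Slc7a12, a light-chain family gene whose heavy-chain partner is not known, had 39.7, 36.2, 34.2 and 37.9 CPM in knockouts 1 to 4, against 0, 0.657, 1.71 and 0.583 CPM in controls 1 to 4. In counts these were 1102, 1251, 1214 and 1278 in the knockouts and 0, 21, 61 and 18 in the controls, so control 1 had none. All 4 knockouts lay within a narrow band, far above every control (log2 fold change 5.63 ± 0.63 SE, adjusted p = 0.00114 in edgeR). The control level rests on few counts, and the log2 fold change was 6.51 without control 3. Its lowest level in a knockout was 34.2 CPM and its highest in a control 1.71 CPM.

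Slc7a13, a light chain that carries aspartate, glutamate and cystine and pairs with the product of Slc3a1 in the last segment of the proximal tubule (S3), had 215, 197, 173 and 132 CPM in the knockouts, against 47.0, 59.6, 53.5 and 70.8 CPM in the controls. The groups did not overlap and the rise was 3.10-fold (log2 fold change 1.63 ± 0.18 SE, adjusted p = 0.00103 in edgeR). Slc7a12 and Slc7a13 are each known in mice to differ in level between male and female kidneys. Whether these differences run the same way in both genes was not examined here. The sex of the animals is not labelled. Xist stood at 0 to 8 counts and the Y-linked genes were present in every library of both groups, as given above. Of 13 other mouse kidney genes listed as differing between the sexes, 3 rose (Cyp7b1, Prlr and Slc22a29), 2 fell (Cyp4b1 and Timd2) and 8 did not pass, with summed levels of 16250.3 to 28123 CPM in knockouts and 9640.1 to 18254 CPM in controls; their part in the result was not tested. Of 15 markers of the later proximal tubule (S2 and S3), 5 rose, 1 fell and 9 did not pass, with summed levels of 21310.2 to 32464 CPM in knockouts and 10989.9 to 21466 CPM in controls. Cyp7b1 and Cyp4b1 stand in both lists. The list of genes that differ between the sexes was not split by the sex with the higher level. Its counts and sums thus give no direction. Over all genes tested, 6.45% were called higher and 6.28% lower. No marker of either list was at 0 throughout a group, and the part of the S2 and S3 markers in the rise of Slc7a13 was not tested.

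Slc3a1 encodes the heavy chain rBAT, whose loss causes the kidney stone disease cystinuria. Its level was 217, 420.1, 344 and 282 CPM in the knockouts, against 118, 185, 204 and 253 CPM in the controls. The lowest knockout lay within the range of the controls, and the gene did not pass (log2 fold change 0.73 ± 0.25 SE, adjusted p = 0.0836 in edgeR). Slc7a9, the light chain that completes the cystine transporter with rBAT, had 69.0, 144, 91.3 and 88.8 CPM in the knockouts, against 50.02, 77.4, 76.1 and 90.1 CPM in the controls. These groups overlapped as well (log2 fold change 0.42 ± 0.24 SE, adjusted p = 0.269 in edgeR). The ratio of Slc7a9 to Slc3a1, both per kilobase of gene length, was 0.370, 0.397, 0.309 and 0.365 in knockouts 1 to 4 and 0.493, 0.485, 0.433 and 0.414 in controls 1 to 4. Every knockout lay under every control in this ratio. Slc7a13 is the other light chain partner of rBAT. Its ratio to Slc7a9 was 2.90, 1.27, 1.76 and 1.38 in the knockouts and 0.874, 0.716, 0.654 and 0.731 in the controls. In this ratio between light chains all knockouts lay above all controls. Summed, Slc7a9 plus Slc7a13 to Slc3a1 gave 1.44, 0.904, 0.853 and 0.869 in the knockouts and 0.924, 0.833, 0.715 and 0.716 in the controls, and these groups overlapped. Ratios were not tested.

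The partners of the second heavy chain, the CD98 heavy chain encoded by Slc3a2, moved in different directions. Slc3a2 had 177, 231, 291 and 261 CPM in the knockouts, against 313, 269, 291 and 313 CPM in the controls and did not pass, with knockout 3 inside the range of the controls (log2 fold change -0.31 ± 0.15 SE, adjusted p = 0.220 in edgeR). Slc7a5 encodes LAT1, the carrier of large neutral amino acids in growing cells, and had 10.3, 12.6, 12.8 and 12.3 CPM in the knockouts, against 30.7, 14.0, 21.4 and 17.9 CPM in the controls. It fell 1.75-fold, with every knockout under every control (log2 fold change -0.81 ± 0.22 SE, adjusted p = 0.0399 in edgeR), and control 1 had the highest level. Slc7a8 encodes LAT2, its counterpart on the basolateral side of the proximal tubule, and had 171, 235, 232 and 294 CPM in the knockouts, against 93.7, 151, 131 and 175 CPM in the controls. It rose 1.70-fold (log2 fold change 0.76 ± 0.21 SE, adjusted p = 0.0408 in edgeR), although knockout 1 lay within the range of the controls. Both calls were close to the threshold: that of Slc7a5 was lost in 7 and that of Slc7a8 in 6 of the 8 leave-one-out fits, with adjusted p up to 0.0961 and 0.116. Slc7a5 lost it without any single library except control 2, and Slc7a8 lost it without any single library except control 4 and knockout 1.

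Slc7a7 encodes the light chain of the basolateral exporter of cationic amino acids, whose loss causes lysinuric protein intolerance. It had 77.8, 160.0, 187 and 158 CPM in the knockouts, against 82.8, 116, 110.1 and 143 CPM in the controls and did not pass (log2 fold change 0.37 ± 0.25 SE, adjusted p = 0.370 in edgeR). The related Slc7a6 had 9.0, 10.2, 11.1 and 12.3 CPM in the knockouts, against 14.0, 7.76, 11.2 and 10.7 CPM in the controls (log2 fold change -0.038 ± 0.20 SE, adjusted p = 0.922 in edgeR). The groups overlapped for both genes. Per kilobase, the ratio of Slc7a8 to Slc7a5 was 14.5, 16.3, 15.8 and 20.9 in knockouts 1 to 4 and 2.65, 9.37, 5.31 and 8.47 in controls 1 to 4. The light chains Slc7a5, Slc7a6, Slc7a7, Slc7a8 and Slc7a10 summed gave 1.31, 1.64, 1.40 and 1.61 per Slc3a2 in the knockouts and 0.644, 0.984, 0.863 and 1.02 in the controls. This sum covers only part of the light chains: it leaves out Slc7a11, as the members do, and takes in Slc7a10, which lay under the minimum total. The heavy chains themselves, Slc3a1 to Slc3a2, stood at 1.57, 2.33, 1.52 and 1.39 in the knockouts and 0.484, 0.883, 0.901 and 1.04 in the controls. In each of these 3 ratios every knockout lay above every control, and control 1 was the lowest of all libraries. The ratios share genes and restate levels given above, so they are not separate observations, and none was tested.

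**Figure D2:**
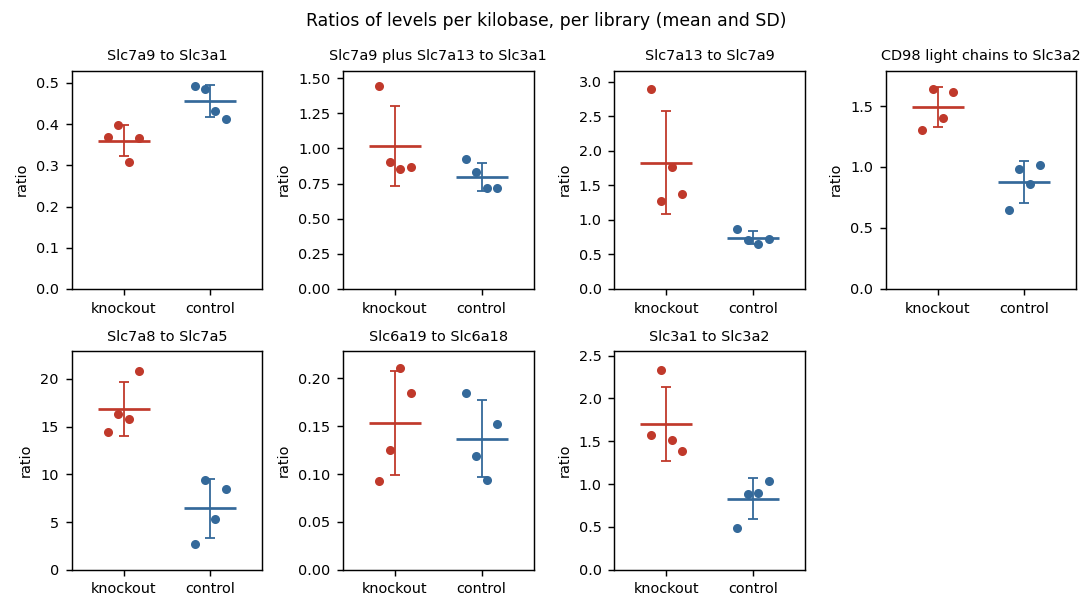
Ratios of levels per kilobase between partner chains and related transporters, knockouts left and controls right, with each library as a point (replicates 1 to 4 from left to right) and the mean and SD as bars. Slc7a9 to Slc3a1 was lower in every knockout than in every control. Slc7a13 to Slc7a9, Slc7a8 to Slc7a5, the CD98 light chains without Slc7a11 to Slc3a2 and Slc3a1 to Slc3a2 were higher in every knockout. The groups overlapped in the other 2 panels.

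Of 6 Slc6 genes for neutral amino acids and proline, several of them apical carriers of the proximal tubule, 1 rose, 0 fell and 5 did not pass. Slc6a18, a neutral amino acid transporter of the late proximal tubule, had the highest level per kilobase of all members (221 CPM per kilobase in knockouts and 222 in controls, as group means), ahead of Slc3a1 (137 and 82.5) and the creatine transporter gene Slc6a8 (93.3 and 118). It took 17.7% to 23.0% of the members' counts in knockouts and 18.4% to 31.3% in controls. Its level was 969, 1126, 886 and 914 CPM in the knockouts, against 638, 887, 1379.5 and 1010.1 CPM in the controls. The knockouts lay inside the range of the controls (log2 fold change -0.0078 ± 0.21 SE, adjusted p = 0.985 in edgeR). Slc6a19 encodes the main sodium-coupled neutral amino acid transporter of the early proximal tubule, the gene of Hartnup disorder, and had 83.1, 131, 173 and 156 CPM in the knockouts, against 109, 97.4, 119 and 142 CPM in the controls (log2 fold change 0.22 ± 0.21 SE, adjusted p = 0.545 in edgeR). The ratio of Slc6a19 to Slc6a18 per kilobase was 0.0926, 0.125, 0.211 and 0.185 in the knockouts and 0.185, 0.118, 0.0934 and 0.152 in the controls, with overlap. Of 8 markers of the first proximal segment (S1), 1 rose (Lrp2) and 0 fell, with summed levels of 3906 to 5719.8 CPM in knockouts and 1803 to 4901 CPM in controls. The share of all genes tested called higher was 6.45%.

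Slc6a20a and Slc6a20b are close paralogs for proline and related imino acids, and reads may have been split between them. Slc6a20b had 112, 158, 121 and 119 CPM in the knockouts, against 30.7, 101, 53.4 and 109.8 CPM in the controls. Every knockout lay above every control, with control 1 the lowest library, but the gene did not pass (log2 fold change 0.79 ± 0.34 SE, adjusted p = 0.154 in edgeR). Slc6a20a had 6.12, 16.4, 13.0 and 7.94 CPM in the knockouts, against 8.37, 8.23, 14.6 and 9.62 CPM in the controls, with overlap (log2 fold change 0.092 ± 0.32 SE, adjusted p = 0.879 in edgeR). Slc6a15, which encodes a sodium-coupled carrier of branched-chain amino acids and proline known mainly from brain, had 28.4, 34.6, 39.7 and 30.5 CPM in the knockouts, against 21.1, 15.3, 16.4 and 15.1 CPM in the controls. It rose 1.96-fold with no overlap (log2 fold change 0.97 ± 0.15 SE, adjusted p = 0.00462 in edgeR), and its call held in all 20 alternatives, with adjusted p from 3.28e-07 to 0.0269. Slc6a17, a relative known from synaptic vesicles, averaged 49.4 ± 6.88 CPM in the knockouts and 30.4 ± 9.98 CPM in the controls (SD, n = 4 each) and did not pass (log2 fold change 0.70 ± 0.22 SE, adjusted p = 0.0603 in edgeR).

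Of the 6 Slc6 genes for osmolytes, creatine, glycine and amines, 2 rose and 1 fell. Slc6a12 encodes the betaine and GABA transporter, which brings betaine as an osmolyte into cells of the medulla, and had 4.61, 5.13, 4.29 and 6.02 CPM in knockouts 1 to 4, against 2.05, 1.28, 1.01 and 0.875 CPM in controls 1 to 4. Every knockout lay above every control and the rise was 3.82-fold (log2 fold change 1.93 ± 0.31 SE, adjusted p = 0.00444 in edgeR). Slc6a6, the taurine transporter gene, had 327, 406, 483 and 381 CPM in the knockouts, against 255, 235, 267 and 291 CPM in the controls. It rose 1.52-fold with no overlap (log2 fold change 0.61 ± 0.14 SE, adjusted p = 0.0215 in edgeR); its call was lost when control 3 or any knockout but knockout 1 was left out (highest adjusted p 0.0580). Markers of later nephron segments, which lie in part in the medulla and in part in the cortex, were higher beside them. The rise was not limited to these segments, since podocyte markers rose in 5 of 8 cases and fell in 0. Of 10 loop of Henle markers 8 rose and 0 fell, with summed levels of 7091 to 7950.0 CPM in knockouts and 2311 to 3953 CPM in controls. Of 16 markers of the distal nephron and collecting duct 14 rose and 0 fell, with sums of 2516 to 3387 CPM in knockouts and 701 to 1664 CPM in controls. The share called higher over all genes tested was 6.45%. None of these markers was at 0 throughout a group, and their part in the rise of Slc6a12 and Slc6a6 was not tested.

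Slc6a13, a GABA and taurine transporter gene of the proximal tubule, had 135, 203, 138 and 122 CPM in the knockouts, against 18.1, 85.6, 52.5 and 92.9 CPM in the controls. Every knockout lay above every control, and control 1 was far below the other controls; the gene did not pass (log2 fold change 1.26 ± 0.41 SE, adjusted p = 0.0689 in edgeR). Of the leave-one-out fits, it passed only without control 1 (log2 fold change 0.96, edgeR adjusted p = 0.0268). It also passed in 6 other alternatives, among them DESeq2, limma-voom and library totals alone, and did not pass in 13 of 20. Slc6a8, the creatine transporter gene, had 272, 357, 424 and 432 CPM in the knockouts, against 582, 387, 422 and 483 CPM in the controls and did not pass (log2 fold change -0.34 ± 0.18 SE, adjusted p = 0.251 in edgeR). The serotonin transporter gene Slc6a4 ranged from 2.37 to 18.1 CPM in knockouts and from 2.95 to 10.98 CPM in controls and did not pass.

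Slc6a9, which encodes the glycine transporter GlyT1, was the transporter gene that fell with the lowest adjusted p. It had 27.9, 22.0, 28.7 and 27.5 CPM in the knockouts, against 61.7, 46.6, 44.5 and 56.4 CPM in the controls. The 4 knockouts lay close together under all controls, 1.97-fold lower by the fitted value (log2 fold change -0.98 ± 0.14 SE, adjusted p = 0.00303 in edgeR). The call held in all 20 alternatives, with adjusted p from 7.75e-08 to 0.0166.

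**Figure D3:**
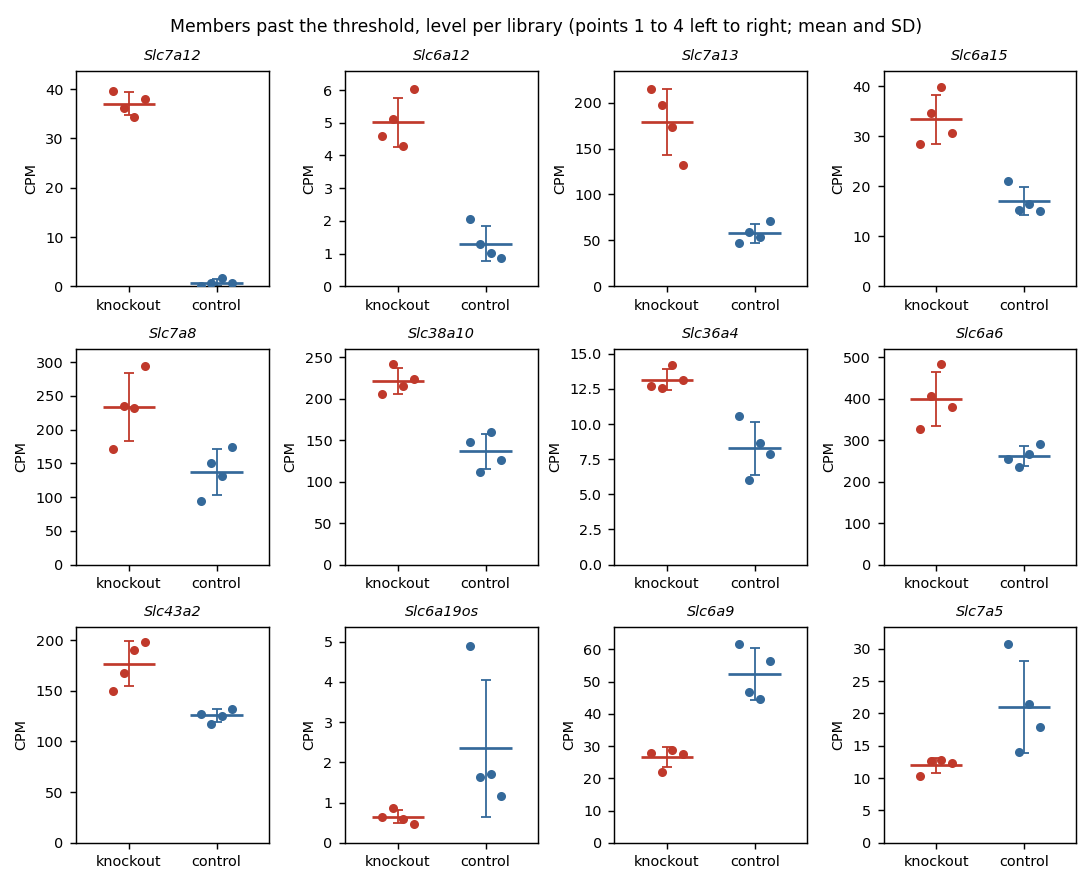
Level in CPM per library for the 12 members that passed the test, knockouts left and controls right in each panel; points are replicates 1 to 4 from left to right, with the mean and SD. The panels run from the 9 higher genes to the 3 lower ones, and in each panel but that of Slc7a8 the groups do not overlap.

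The glutamate and alanine-serine-cysteine transporters of the Slc1 family had 5 members, of which 0 passed at the adjusted threshold and 3 at an unadjusted p under 0.05. In edgeR, 29.1% of all genes tested had an unadjusted p under 0.05. DESeq2, which called 10.7% of all genes higher and 10.0% lower, called 2 of the 5, Slc1a3 higher and Slc1a4 lower. Slc1a1, the apical glutamate and aspartate transporter gene of the proximal tubule, had 230.1, 257, 247 and 226 CPM in the knockouts, against 120.0, 230.1, 184 and 247 CPM in the controls (log2 fold change 0.30 ± 0.20 SE, adjusted p = 0.355 in edgeR). Controls 2 and 4 lay within the range of the knockouts, and control 1 was the lowest library. Slc1a4, a neutral amino acid exchanger gene, had 52.2, 45.2, 46.9 and 44.0 CPM in the knockouts, against 51.4, 66.0, 60.6 and 90.9 CPM in the controls. Control 4 was the highest library, and control 1 lay inside the range of the knockouts (log2 fold change -0.51 ± 0.17 SE, adjusted p = 0.0674 in edgeR). Slc1a5, the glutamine exchanger gene of growing cells, had 108, 109, 84.1 and 89.6 CPM in the knockouts, against 73.5, 97.5, 87.1 and 84.1 CPM in the controls (log2 fold change 0.19 ± 0.13 SE, adjusted p = 0.361 in edgeR). Slc1a3, a glutamate transporter gene known from glia, had 3.38, 4.29, 3.55 and 2.16 CPM in the knockouts, against 1.83, 1.22, 2.72 and 1.62 CPM in the controls (log2 fold change 0.85 ± 0.32 SE, adjusted p = 0.108 in edgeR). Its groups overlapped, as did those of Slc1a5. Slc1a2, the remaining glutamate transporter gene, ranged from 1.30 to 3.02 CPM in knockouts and from 2.82 to 5.18 CPM in controls.

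The cationic amino acid transporter group of the Slc7 family had 4 members, and 0 passed in edgeR (0 at an unadjusted p under 0.05) or DESeq2. Slc7a1, the general arginine and lysine carrier gene, had 23.9, 23.9, 26.6 and 31.5 CPM in the knockouts, against 55.9, 26.0, 33.2 and 26.1 CPM in the controls. Control 1 stood above all other libraries (log2 fold change -0.42 ± 0.24 SE, adjusted p = 0.279 in edgeR). Slc7a2, the arginine carrier gene of liver and activated macrophages, had 0.936, 1.07, 4.20 and 5.22 CPM in the knockouts, against 2.11, 3.91, 1.1 and 2.69 CPM in the controls. Both groups spread widely (log2 fold change 0.23 ± 0.59 SE, adjusted p = 0.834 in edgeR). Slc7a3 ranged from 0.474 to 0.762 CPM in knockouts and 0.421 to 0.845 CPM in controls, and Slc7a4 from 4.99 to 6.40 and 6.57 to 9.23 CPM. For Slc7a4 the groups did not overlap (log2 fold change -0.38 ± 0.19 SE, adjusted p = 0.206 in edgeR).

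Of 8 members of the Slc38 family, sodium-coupled carriers of glutamine and small neutral amino acids and their lysosomal relatives, 1 rose and 0 fell. Slc38a10, a family member whose transport role is little described, had 205, 241, 215 and 223 CPM in the knockouts, against 148, 112, 159.8 and 126 CPM in the controls. Every knockout lay above every control, 1.62-fold higher by the fitted value (log2 fold change 0.70 ± 0.13 SE, adjusted p = 0.00938 in edgeR), and the call held in all 20 alternatives (adjusted p 1.30e-05 to 0.0496). Slc38a2, whose gene is known to respond to amino acid shortage, had 72.3, 81.6, 92.9 and 93.2 CPM in the knockouts, against 167, 95.0, 137 and 104 CPM in the controls. All knockouts lay under all controls, but the gene did not pass (log2 fold change -0.57 ± 0.18 SE, adjusted p = 0.0656 in edgeR). Of the leave-one-out fits, it passed only without control 2 (log2 fold change -0.68, edgeR adjusted p = 0.0315). It also passed with DESeq2 and with the length or length and GC trends removed, and did not pass in 16 of 20 alternatives. Slc38a1 had 8.21, 8.98, 8.77 and 12.9 CPM in the knockouts, against 15.8, 5.57, 10.4 and 8.32 CPM in the controls, with overlap (log2 fold change -0.050 ± 0.30 SE, adjusted p = 0.932 in edgeR). Slc38a3, the basolateral glutamine carrier gene of the proximal tubule that feeds ammonia production, had 165, 178, 114 and 102 CPM in the knockouts, against 14.7, 139, 93.4 and 107 CPM in the controls. Control 1 had less than every other library, and the groups overlapped (log2 fold change 0.66 ± 0.51 SE, adjusted p = 0.428 in edgeR).

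Slc38a9 encodes the lysosomal arginine sensor of mTORC1 and had 13.9, 15.3, 14.9 and 14.8 CPM in the knockouts, against 12.2, 9.82, 15.3 and 15.03 CPM in the controls (log2 fold change 0.17 ± 0.16 SE, adjusted p = 0.533 in edgeR). The lysosomal glutamine carrier gene Slc38a7 averaged 30.1 ± 3.44 CPM in the knockouts and 30.1 ± 1.70 CPM in the controls (SD, n = 4 each) and Slc38a6 averaged 12.9 ± 1.19 CPM in the knockouts and 13.2 ± 0.343 CPM in the controls (SD, n = 4 each). These 3 genes overlapped between the groups and did not pass. Slc38a4 averaged 1.96 ± 0.273 CPM in the knockouts and 1.26 ± 0.160 CPM in the controls (SD, n = 4 each), and every knockout lay above every control (log2 fold change 0.64 ± 0.27 SE, adjusted p = 0.143 in edgeR).

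In the proton-coupled Slc36 family 1 of 3 members rose and in the Slc43 family 1 of 3. Slc36a4, a carrier gene for proline and tryptophan, had 12.7, 12.5, 14.2 and 13.1 CPM in the knockouts, against 10.6, 6.04, 8.62 and 7.84 CPM in the controls. The groups did not overlap and the rise was 1.59-fold (log2 fold change 0.67 ± 0.18 SE, adjusted p = 0.0403 in edgeR). Its call was lost in 7 of the 8 leave-one-out fits, all but that without control 1 (adjusted p up to 0.103). Slc36a1, the lysosomal and apical proton-coupled carrier gene, had 57.6, 94.9, 104 and 110.4 CPM in the knockouts, against 53.0, 83.5, 78.9 and 114 CPM in the controls, with overlap (log2 fold change 0.16 ± 0.25 SE, adjusted p = 0.717 in edgeR). Slc43a2, which encodes the basolateral carrier LAT4 for branched-chain amino acids, phenylalanine and methionine, had 149, 168, 190.3 and 199 CPM in the knockouts, against 127, 118, 126 and 132 CPM in the controls. It rose 1.40-fold with no overlap (log2 fold change 0.49 ± 0.12 SE, adjusted p = 0.0241 in edgeR), and lost its call when control 2, control 3 or any knockout but knockout 1 was left out (highest adjusted p 0.0765). Slc43a3, described as a purine base carrier rather than an amino acid transporter, had 30.3, 23.4, 35.6 and 34.2 CPM in the knockouts, against 17.5, 25.0, 11.7 and 26.5 CPM in the controls and did not pass (log2 fold change 0.62 ± 0.25 SE, adjusted p = 0.127 in edgeR). The remaining gene, Slc43a1, averaged 1.27 ± 0.361 CPM in the knockouts and 1.03 ± 0.373 CPM in the controls (SD, n = 4 each).

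Slc36a2, a proton-coupled carrier gene for proline and glycine that also marks brown fat cells, had 2, 73, 0 and 0 counts in knockouts 1 to 4, against 25, 60, 60 and 15 counts in controls 1 to 4. In CPM these were 0.0720, 2.11, 0 and 0 CPM in the knockouts, against 0.703, 1.88, 1.68 and 0.486 CPM in the controls. Knockout 2 was the highest of all libraries, and the other knockouts were at or near 0. The gene did not pass (log2 fold change -1.10 ± 1.21 SE, adjusted p = 0.592 in edgeR), and without knockout 2 its log2 fold change was -5.57 (edgeR adjusted p = 0.0191). The fat cell gene Adipoq had 8, 297, 0 and 11 counts in the knockouts, against 60, 268, 167 and 36 in the controls. Knockout 2 and control 2 were the highest for Adipoq, and the same held for Cfd (4, 2563, 2 and 170 counts in the knockouts, against 531, 3201, 985 and 468 in the controls) and Plin1 (2, 268, 10 and 11 counts in the knockouts, against 119, 319, 199 and 113 in the controls). Ucp1, the gene of brown fat heat production, had 0, 2, 0 and 0 counts in the knockouts, against 0, 155, 75 and 20 in the controls. The whole list of 13 adrenal, fat and skeletal muscle markers summed to 4.82 to 95.5 CPM in knockouts and 23.4 to 127 CPM in controls; 4 of the 13 passed the filter on low counts, 0 of these were called in edgeR (0 at an unadjusted p under 0.05), and Cyp11b1, Cyp11b2, Th, Dbh, Ckm and Myh4 were at 0 in all 8 libraries. Their part in the level of Slc36a2 was not tested.

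**Figure D4:**
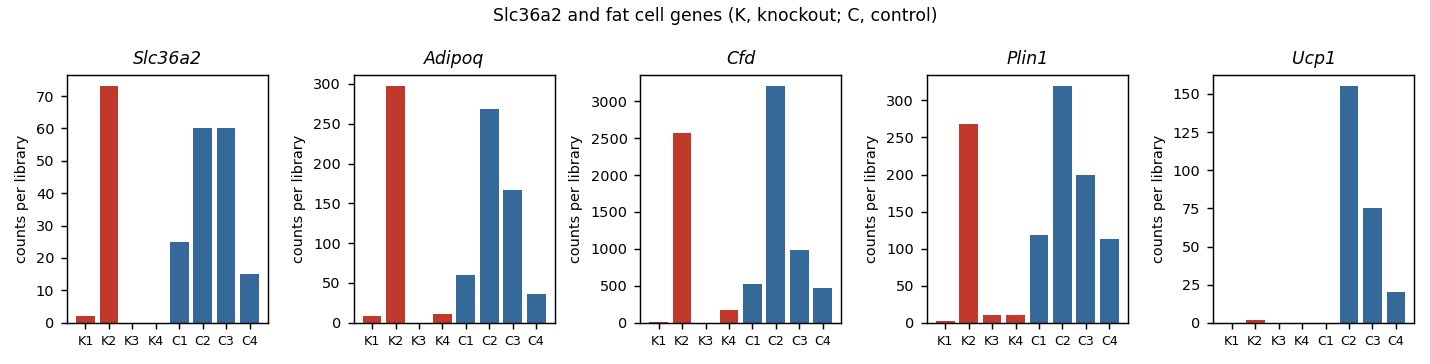
Counts per library of Slc36a2 and of the fat cell genes Adipoq, Cfd, Plin1 and Ucp1, with knockouts 1 to 4 (K1 to K4) left of controls 1 to 4 (C1 to C4). Slc36a2 was highest in knockout 2 (73 counts), which was also high in Adipoq (297), Cfd (2563) and Plin1 (268) but not in Ucp1 (2).

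The opposite-strand loci were lower in every knockout than in every control. Slc6a19os, a locus that overlaps the gene Slc6a19 on the other strand with no shared exon bases in the GENCODE M21 annotation, had 0.648, 0.869, 0.592 and 0.474 CPM in the knockouts, against 4.89, 1.63, 1.71 and 1.17 CPM in the controls. It fell (log2 fold change -1.86 ± 0.49 SE, adjusted p = 0.0336 in edgeR), with control 1 far above the other controls. Without control 1 its log2 fold change was -1.21 and the call was lost (edgeR adjusted p = 0.0693); the call was lost in 6 of the 8 leave-one-out fits, all but those without control 2 or control 4. Slc7a6os, which does not overlap Slc7a6 in that annotation, ranged from 20.4 to 21.7 CPM in knockouts and from 24.9 to 28.0 CPM in controls and did not pass (log2 fold change -0.33 ± 0.10 SE, adjusted p = 0.0661 in edgeR). Because the kit in the labels keeps no strand information, unspliced reads from stretches where Slc6a19os and Slc6a19 overlap cannot be told apart.

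Genes around the transporters were described from 4 lists. In the response to amino acid shortage, in which the kinase encoded by Eif2ak4 and the factor ATF4 switch on genes of amino acid synthesis and uptake, 8 of 20 genes fell (40%), 0 rose and 12 did not pass, with a median log2 fold change of -0.54. The share called lower over all genes was 6.28%. The summed level of the list was 921 to 1066 CPM in knockouts and 1260.3 to 1433 CPM in controls. Asns, which encodes asparagine synthetase, had 13.0, 9.06, 10.6 and 14.4 CPM in the knockouts, against 72.8, 32.1, 32.0 and 22.3 CPM in the controls. It fell 3.39-fold (log2 fold change -1.76 ± 0.34 SE, adjusted p = 0.00964 in edgeR), with control 1 the highest library. Psat1 and Phgdh, enzymes of serine synthesis, fell 2.09-fold and 1.85-fold (edgeR adjusted p = 0.00779 and 0.0146). Chac1, which breaks down glutathione, fell 3.81-fold (edgeR adjusted p = 0.0242). These 4 had the smallest p of the 8. Atf4 itself had 271, 179.6, 189 and 174 CPM in the knockouts, against 290.5, 267, 221 and 283 CPM in the controls and did not pass, with knockout 1 inside the range of the controls (log2 fold change -0.38 ± 0.16 SE, adjusted p = 0.152 in edgeR). The count of fallen genes was 3 without knockout 2, knockout 3 or knockout 4, and 2 without control 1 and knockout 3 together. In these fits, in that order, 3.41%, 3.71%, 2.97% and 3.30% of all genes were called lower.

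Of 29 genes of amino acid sensing by mTORC1, 4 rose (13.8%), 1 fell (3.45%) and 24 did not pass, with a median log2 fold change of 0.024. Over all genes tested, 6.45% were called higher and 6.28% lower. The share that fell rests on 1 gene, too few to set it apart from the background. The genes that rose were Rragd, a small GTPase that recruits mTORC1 to lysosomes (1.63-fold), Sesn1, a leucine sensor (1.59-fold), Castor2 of the arginine sensor family (1.48-fold) and Mtor, the kinase itself (1.38-fold; named after its value was seen), with edgeR adjusted p from 0.0218 to 0.0466. Lars, which encodes leucyl-tRNA synthetase, fell 1.33-fold (edgeR adjusted p = 0.0345), and no gene of the list was called lower without control 1, control 3 or any single knockout. The count of risen genes was 0 without knockout 2 or knockout 4, 1 without control 3 or control 4 and 2 without control 1 or knockout 3. In these fits, in that order, 3.51%, 3.01%, 3.42%, 4.86%, 5.40% and 3.79% of all genes were called higher.

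**Figure D5:**
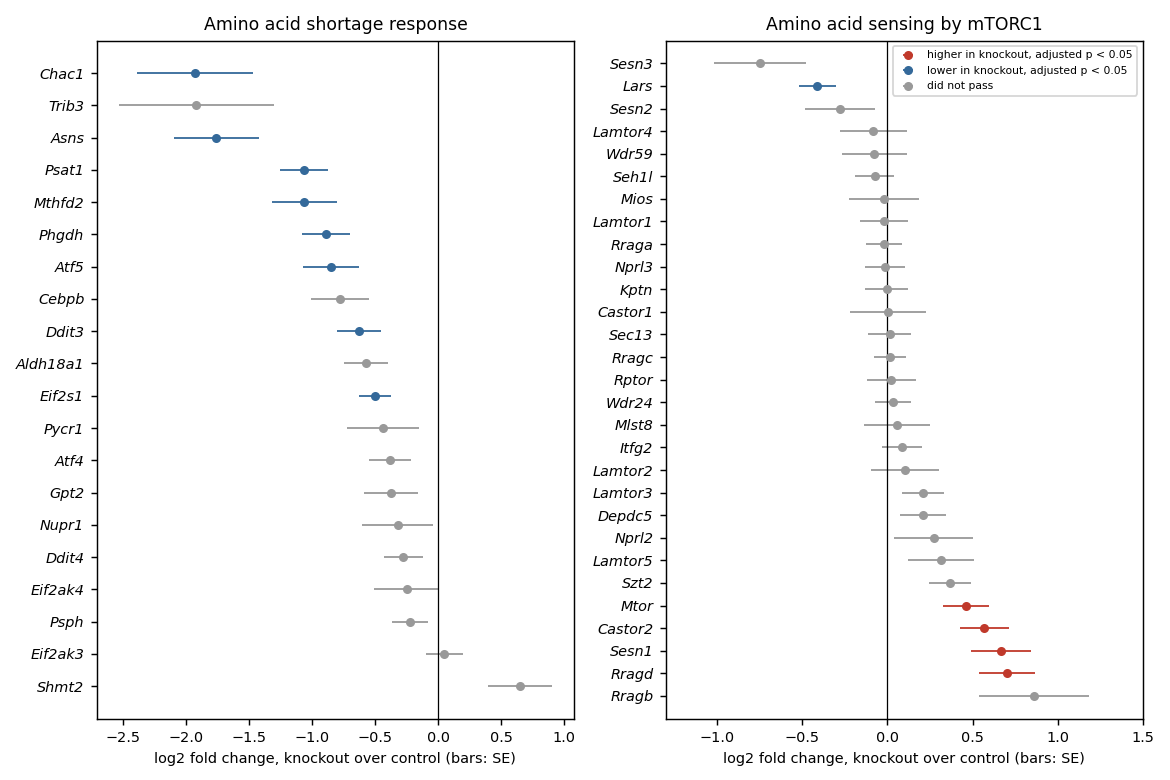
Log2 fold changes, knockout over control, with SE bars, for the 20 genes of the amino acid shortage response (left) and the 29 genes of amino acid sensing by mTORC1 (right), each sorted from lowest to highest. Blue points passed as lower (8 left, 1 right) and red points as higher (0 left, 4 right); grey points did not pass.

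Among the partners of apical transporters and other carriers, 1 of 11 genes tested rose (9.09%) and 0 fell. This share was near the 6.45% of all genes tested that were called higher. The riser was Slc15a2, the high-affinity peptide transporter gene of the late proximal tubule, with 141, 147, 91.9 and 64.4 CPM in the knockouts, against 15.01, 55.1, 29.7 and 40.2 CPM in the controls. It rose 3.18-fold (log2 fold change 1.67 ± 0.38 SE, adjusted p = 0.0200 in edgeR), with every knockout above every control, and lost its call without control 3 or knockout 2. Cltrn, whose product brings the Slc6a19 protein to the membrane in the kidney, gave 0.20 on the log2 scale (edgeR adjusted p = 0.519). Slc16a10, the basolateral carrier gene for aromatic amino acids, had 0.26 on the same scale (edgeR adjusted p = 0.188). In the list of traffic and turnover genes, 1 of 13 rose (7.69%), Arrdc3 (1.38-fold, edgeR adjusted p = 0.0231), and 0 fell. That share was also near the 6.45% over all genes. No gene of this list was called higher without control 3, control 4, knockout 3 or knockout 4, and 2 were without knockout 2. Sgk1, a kinase that raises the activity of several of these transporters, did not pass (log2 fold change 0.74, edgeR adjusted p = 0.0799).

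Several cell type lists moved between the same groups. Beside the counts below, 6.45% of all genes tested were called higher and 6.28% lower. Injured tubule markers fell in 15 of 19 cases and rose in 0, with summed levels of 6757 to 7617 CPM in knockouts and 18144 to 33392 CPM in controls. Immediate early and heat shock genes fell in 11 of 19 tested and rose in 0, with sums of 1008 to 1260.3 CPM in knockouts and 1781 to 2270.4 CPM in controls. Of 14 macrophage and monocyte markers 3 fell (Cd14, Itgam and Ccr2) and 0 rose, with sums of 252 to 414 CPM in knockouts and 331 to 444 CPM in controls. Of 7 neutrophil markers tested 6 fell, with sums of 6.09 to 16.7 CPM in knockouts and 27.7 to 178 CPM in controls. Podocyte markers rose in 5 of 8 cases and endothelial markers in 3 of 10, and 0 fell in either list. Fibroblast, lymphocyte, and X- and Y-linked lists had 0 calls in edgeR among 9, 8 and 4 genes tested, with 3, 1 and 1 at an unadjusted p under 0.05. The share of all genes tested with an unadjusted p under 0.05 in edgeR was 29.1%. Ren1 and Tsix were at 0 in all 8 libraries. The part of these markers in the members' changes was not tested.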

How the data were processed

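Kidney RNA of 8 libraries, 4 knockout and 4 control, was sequenced. The authors deposited 1 table of raw counts per gene, with a gene length column; per the submitters' processing notes the tools were FastQC, Trim Galore 0.6.2, HISAT2 2.2.1 and Salmon 1.10.2 with the build mm39. The counting tool, gene annotation and filters were not given in the sources used here. Genes were taken by symbol. Among counts from 1 to 20, 68.7% to 70.9% per library were even, against 49.5% to 50.4% among counts over 100; the cause was not tested, and precision from depth covers counting error only.

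Genes were filtered with filterByExpr (minimum count 10), which left 15000, and fitted with edgeR 4.0.16 in R 4.3.3 (TMM factors, glmQLFit, glmQLFTest; no covariate). Adjustment was by Benjamini-Hochberg over all genes tested, and SE was derived from the F statistic. Levels per kilobase divide CPM by the deposited length. Members and lists were chosen with earlier results of these data known. Values in every library were given for called members with an absolute log2 fold change of at least 1 and for a fixed list of 32 members; of other members, those that were called, and Slc36a2's fat cell genes, were added after their values were seen. The alternatives were other scalings, DESeq2 1.42.0, limma 3.58.1, other filters, removed length and GC trends (GC added after seeing the data, with values for 98.4% of genes), a replicate block, and leaving out libraries.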

Additional observations from a re-analysis of the deposited data

Results flagged for a closer look

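In 4 of the 92 groups of 4 libraries (46 members, 2 groups each), the highest library lay apart from the other 3 by more than Dixon's critical share of the group's range; chance gives such a gap in about 1 of 20 groups. Slc36a2 stood at 2.11 CPM in knockout 2, against 0 to 0.0720 CPM in the other knockouts. Slc6a19os stood at 4.89 CPM in control 1, against 1.17 to 1.71 CPM in the other controls. Slc38a1 stood at 12.9 CPM in knockout 4, against 8.21 to 8.98 CPM in the other knockouts. Slc7a3 stood at 0.762 CPM in knockout 3, against 0.474 to 0.521 CPM in the other knockouts.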

How the results depend on the processing

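Of 918 member values under the alternatives, 802 kept direction and side of the threshold, 47 lost a call, 27 gained one and 42, of 10 members without a call, changed sign. Slc7a12, Slc7a13, Slc6a12, Slc6a15, Slc6a9 and Slc38a10 passed in all 20 alternatives. Members that rose numbered 5 to 9 with 1 library left out. Members that fell numbered 1 to 4 with 1 library left out, 6 with DESeq2, 6 with limma-voom, 5 with the length trend removed, 1 with the replicate block, 1 with control 1 and knockout 3 left out and 6 with the length and GC trends removed. Partner and peptide carrier genes that rose numbered 0 to 1 with 1 library left out and 0 with the replicate block. Partner and peptide carrier genes that fell numbered 0 with 1 library left out and 1 with the length trend removed. mTORC1 sensing genes that rose numbered 0 to 3 with 1 library left out, 1 with the replicate block and 1 with control 1 and knockout 3 left out. mTORC1 sensing genes that fell numbered 0 to 2 with 1 library left out, 0 with library totals alone, 2 with DESeq2, 0 with the replicate block and 0 with control 1 and knockout 3 left out. Amino acid shortage genes that fell numbered 3 to 9 with 1 library left out and 2 with control 1 and knockout 3 left out. Traffic genes that rose numbered 0 to 2 with 1 library left out, 2 with DESeq2, 0 with the replicate block and 0 with control 1 and knockout 3 left out. Traffic genes that fell numbered 0 with 1 library left out, 1 with DESeq2, 1 with limma-voom, 2 with the length trend removed and 2 with the length and GC trends removed. Over all genes the share called lower moved too, to 10.0% with DESeq2, 9.65% with limma-voom, 10.5% with the length trend removed, 11.2% with the length and GC trends removed and 3.30% with control 1 and knockout 3 left out. DESeq2 called 13 members higher (10.7% of all genes). Slc3a1 passed as higher with DESeq2. Slc6a17 passed as higher with DESeq2, limma-voom, the length trend removed and without control 3. Slc1a4 passed as lower with DESeq2, limma-voom, the length and GC trends removed and without control 1. Slc7a6os passed as lower with DESeq2, limma-voom and the length or the length and GC trends removed. Slc36a2 passed as lower with limma-voom. Slc6a18 (-0.0078 on the log2 scale) gave -0.17 to 0.20 with 1 library left out, 0.0017 with RLE factors, 0.021 with library totals alone, 0.0017 with DESeq2 and 0.041 with the replicate block. Slc38a1 (-0.050 on the log2 scale) gave -0.25 to 0.26 with 1 library left out, 0.25 with limma-voom, 0.030 with the replicate block and 0.30 with control 1 and knockout 3 left out. Slc7a3 (-0.053 on the log2 scale) gave -0.23 to 0.17 with 1 library left out. Slc6a20a (0.092 on the log2 scale) gave -0.17 to 0.32 with 1 library left out and -0.090 with control 1 and knockout 3 left out. Slc6a4 (0.45 on the log2 scale) gave -0.15 to 0.82 with 1 library left out and -0.27 with limma-voom. Slc7a6 (-0.038 on the log2 scale) gave -0.17 to 0.10 with 1 library left out, 0.12 with limma-voom and 0.085 with control 1 and knockout 3 left out. Slc7a2 (0.23 on the log2 scale) gave -0.23 to 0.55 with 1 library left out, -0.0085 with the replicate block and -0.083 with control 1 and knockout 3 left out. Slc38a6 (-0.035 on the log2 scale) gave -0.10 to 0.011 with 1 library left out. Slc38a7 (-0.0035 on the log2 scale) gave -0.079 to 0.045 with 1 library left out, 0.0046 with RLE factors, 0.021 with library totals alone, 0.0048 with DESeq2, 0.0013 with the stricter filter and 0.042 with control 1 and knockout 3 left out. Slc36a1 (0.16 on the log2 scale) gave -0.0053 to 0.35 with 1 library left out and -0.071 with control 1 and knockout 3 left out. Of all calls, 59.2% were higher with library totals alone and 39.4% with the length and GC trends removed, the second chosen after seeing the data. Libraries with the same number in their titles deviated from their group means with r = -0.198, 0.0358, 0.153 and -0.161. The count columns number the knockouts otherwise. By column number, control 2 went with knockout 1 (r = 0.347) and control 3 with knockout 2 (r = 0.167). These few values cannot show whether libraries were paired. The replicate block used the title numbers. With it 865 genes were called, against 1909 without it. In that fit 6 members were higher (2.98% of all genes) and 1 lower (2.79%). The cause of these differences was not tested. The low counts of Slc7a3, Slc36a2 and Slc43a1, 153 to 299 in all, limit their precision.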
